A study of Drosophila melanogaster with 24 samples.

Results

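*Drosophila* testes dissected on the day of eclosion (day 0) were represented by 6 of the 24 RNA-seq libraries of the series, 3 from Ctrl KD testes and 3 from *Set1* KD testes, selected by their titles. Ctrl KD flies carried *nos-Gal4* with an *mCherry* RNAi transgene, and *Set1* KD flies carried the same driver with a *Set1* RNAi transgene. The labels give the controls as WT and the cell type as germ cell. Both were raised at 18°C, and the males of the later groups were then kept at 25°C for 1, 3 or 5 days before dissection. Each library came from about 15 pairs of testes that were pooled and dissociated, and the cells were filtered before RNA extraction. According to the methods, libraries were made from RNA selected by its poly(A) tail, so RNAs without such a tail may be understated. *nos-Gal4* drives the knockdown in early germ cells only. According to the paper the entire tissue was used, so RNA of later germ cells and of the somatic cells entered the same libraries. The values used here are the authors' means over the 6 libraries of a day. They therefore average Ctrl KD and *Set1* KD testes, carry no replicate error, and do not show what the knockdown changed at day 0. No difference between the genotypes is given, and no difference between days was tested.

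Spermatogenesis starts from germline stem cells that contact the hub, a cluster of somatic niche cells. The daughters divide as spermatogonia, grow as spermatocytes in which most genes needed later are transcribed, pass meiosis and elongate as spermatids, whose histones give way to protamine-like proteins. Somatic cyst cells enclose the germ cells, and a sheath of muscle and pigment cells covers the testis. The SET1 protein works in a complex that adds methyl groups to lysine 4 of histone H3, and the trimethylated form of this residue is found at active promoters.

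The table of day 0 listed 12714 of the 13395 genes that were listed on at least 1 day. The mean normalized count of a gene ranged from 5.27 to 610672, with a median of 237.2. The paper counted more genes with detectable expression in the series than are listed. A gene that is not listed was therefore not necessarily silent. For comparisons between genes, the mean normalized count was divided by the length of all exons of the gene and scaled to a sum of 1000000 over the genes with a length, and the result is called the level below. The median level of all genes was 9.97, and the quartiles were 2.97 and 42.5. The depth of each library was not used here, so no counting interval is attached to a level.

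A small number of genes made up much of the summed level at day 0. The 10 genes of highest level held 8.84% of the summed level, the highest 100 held 28.3%, and the highest 1000 held 68.8%. Without the mitochondrially encoded genes, the 10 highest held 5.51%. The highest of all was *lrRNA*, the large ribosomal RNA of the mitochondrion, with a level of 39318. Next came *CG12699* (7182), *CG31740* (6825) and *CG31226* (5777), protein-coding genes known by annotation numbers only, as were *CG34168* (5053), *CG10252* (4398), *CG15219* (4267) and *CG9016* (3252) further down. Of the 20 highest genes, 4 were encoded by the mitochondrial genome, namely *lrRNA* and the cytochrome oxidase subunits *COX3* (5427), *COX1* (5004) and *COX2* (3575).

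**Figure D1:**
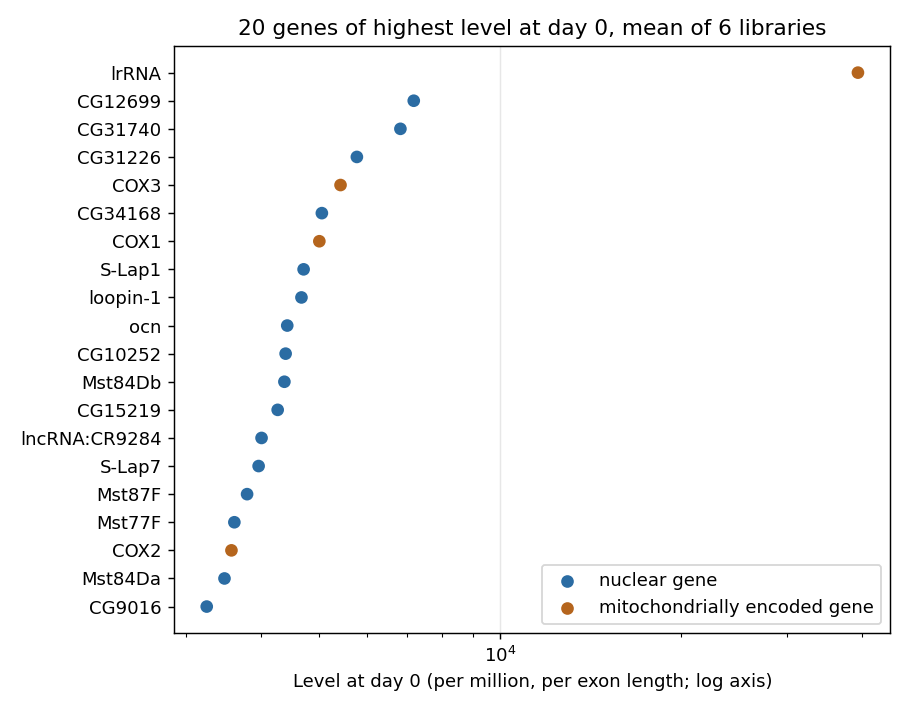
Levels at day 0 of the 20 highest genes (log axis; share of the sum times 1000000, per exon length), each point the authors' mean over 6 libraries of both genotypes. *lrRNA* stands at 39318 and the other 19 genes lie between 3252 and 7182.

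The nuclear protein-coding genes with a given name among the highest 20 encode proteins of the sperm. *S-Lap1* (level 4712, chromosome 3L, 8617235 to 8619474) and *S-Lap7* (3967, chromosome 2R, 13778124 to 13780245) encode sperm leucyl aminopeptidases, abundant proteins of the sperm. *loopin-1* (4673, chromosome 2R, 16534943 to 16537086) encodes a related peptidase found along the sperm mitochondria. *ocn* (4426, chromosome 3R, 30037003 to 30037730) encodes the sperm protein ocnus. *Mst84Db* (4378), *Mst87F* (3795) and *Mst84Da* (3481) belong to a family of small proteins of the sperm tail. The chromatin protein gene *Mst77F* had a level of 3615, on chromosome 3L between 20816901 and 20818027. By mean normalized count, which favours long transcripts, *lrRNA* (610672) was followed by *loopin-1* (117536) and *S-Lap1* (117237), and *CG4836* (99628), *S-Lap8* (60936), *betaTub85D* (60568) and *Pen* (52762) also ranked among the 10 highest genes. Coordinates are those of Release 6 of the genome.

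Among long non-coding RNAs, *lncRNA:CR9284* had the highest level, 4011, and was the only one among the 20 highest genes. It was followed by *lncRNA:CR32652* (2976), *lncRNA:CR44455* (2190), *lncRNA:CR32690* (2173) and *lncRNA:CR34335* (1976). In all, 1220 genes of the non-coding RNA class were listed, 9.61% of the annotated genes, and they held 4.32% of the summed level, or 2.31% of the counts without division by length. The median level was 6.23 in this class and 10.8 in the 11381 protein-coding genes.

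Of the 19 genes in the sperm tail and spermatid list, all were listed, and their levels ranged from 355 for *S-Lap5* to 4712 for *S-Lap1*. The median was 1971, against 9.97 over all genes, and together they held 4.72% of the summed level. The 7 S-Lap members spanned this entire range, with *S-Lap7* at 3967, *S-Lap8* at 2528, *S-Lap4* at 1906, *S-Lap2* at 1795 and *S-Lap3* at 1164 in between. Within the Mst84D cluster, *Mst84Db* (4378) was followed by *Mst84Da* (3481), *Mst84Dd* (2709) and *Mst84Dc* (1971). *dj* (1790.1), which encodes the sperm tail protein Don juan, was higher than its relative *djl* (793). Members of these families are alike in sequence, and how the authors' counting treated reads that fit several of them is not given in the sources used here, so the order within a family is uncertain.

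All 6 sperm chromatin genes were listed, with a median level of 827. After *Mst77F* (3615), the protamine genes *ProtB* (1371) and *ProtA* (944) were the highest. They were followed by *Prtl99C* (710), another protamine-like gene, *Tpl94D* (433), a transition protein gene, and *ddbt* (319), which acts at sperm telomeres. The reads of *ProtA* and *ProtB*, which are near-identical copies, may have been divided between them.

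The cup and comet genes are transcribed after meiosis, a stage at which most transcription of the fly male germline has ceased. Of 22 names in this list, 19 were listed at day 0, *cola* was not listed, and *schuma* and *swim* were not matched to a gene. Of these, 18 genes lay above the median of all genes. The highest were *soti* (1306), an inhibitor of a ubiquitin ligase that acts in caspase activation in spermatids, *w-cup* (921), *scpr-C* (889) and *scpr-A* (830). The median of the list was 183, and *s-cup* was lowest with 9.27.

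The lists of earlier stages had lower medians per exon length than the 3 lists above, 103 for meiotic entry and spermatocytes and 32.3 for meiotic arrest. Without division by length, meiotic entry and spermatocyte genes held 0.669% of the counts, sperm chromatin genes 0.509% and cup and comet genes 0.609%. In the meiotic entry and spermatocyte list, *betaTub85D*, the testis-specific beta tubulin, had a level of 2805. *fest* (438) and *bol* (171), which take part in translation control at meiotic entry, and *fzo* (113), needed for mitochondrial fusion in spermatids, followed, and the lowest of the 10 genes was *CycB3* (22.8). Of the 12 meiotic arrest genes, which switch on the spermatocyte programme, *Taf12L* (412), *mip40* (133), *topi* (51.7) and *sa* (39.2) had the highest levels. The lowest was *comr* (6.199).

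The 13 genes of germline stem cells and spermatogonia, where *nos-Gal4* is active, had a median level of 7.64, below that of all genes, and 5 of them were above it. The highest were *tut* (52.6), which acts with Bam to end the spermatogonial divisions, *AGO3* (51.1), of the piRNA pathway, *bgcn* (17.1), a partner of Bam, and *nos* (16.5), a translational regulator. *vas*, the RNA helicase used as a general germ cell marker, stood at 5.29 and *zpg*, the germline innexin, at 2.85. *bam*, the switch from proliferation to differentiation, was lowest with 2.64. The mean normalized counts behind these levels were 141.7 for *vas*, 51.4 for *zpg* and 60.3 for *bam*. According to the paper, nearly all *Set1* KD testes showed germ cell loss on the day of eclosion, whereas Ctrl KD testes did not. The levels average both genotypes, so they do not describe normal testes alone. Whether the loss lowered the levels of this list was not tested.

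**Figure D2:**
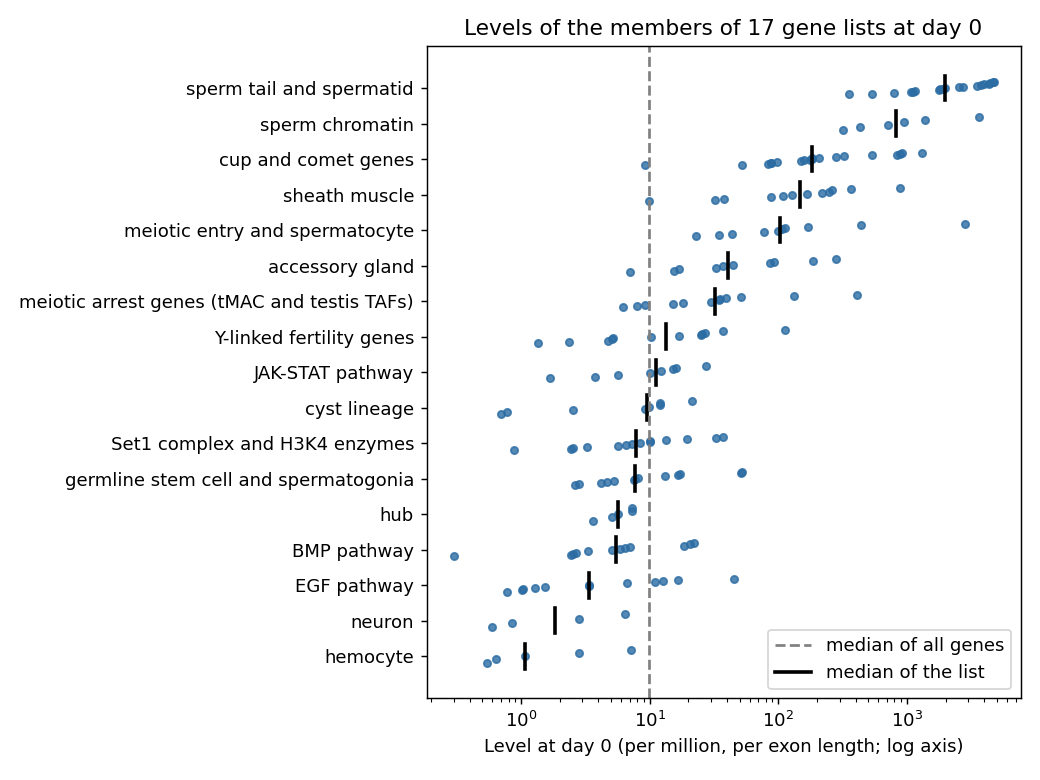
Levels at day 0 of the members of 17 gene lists (log axis; share of the sum times 1000000, per exon length). Each point is a gene, the black bar is the median of its list and the dashed line is the median of all genes (9.97). The sperm tail list has the highest median (1971) and the hemocyte list the lowest (1.08).

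*Set1*, on chromosome 3L between 25107594 and 25115180, had a mean normalized count of 213.3 and a level of 3.27 at day 0, higher than 26.7% of genes. Because this value averages both genotypes and all cell types of the testis, it does not test the knockdown. The list of the SET1 complex and the enzymes of lysine 4 also holds associated genes. Among these is *Utx*, which the paper describes as a demethylase of another residue of histone H3. All 14 genes of this list were listed, with a median of 7.84. The highest were the shared complex members *Rbbp5* (37.2) and *Dpy-30L1* (32.8), *Hcf* (19.4) and *Wdr82* (13.4), the latter particular to the SET1 complex in flies. *Cfp1*, which binds unmethylated CpG, stood at 10.0. The other H3K4 methyltransferases, *trr* (2.55) and *trx* (2.44), were near *Set1*, and *Ptip* (0.875) was lowest. *Kdm5*, listed as *lid*, which removes the mark, had a level of 6.57.

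The median level was 11.2 in the JAK-STAT list, 5.46 in the BMP list and 3.39 in the EGF list, against 9.97 over all genes. Above the latter were 5 of 8 listed JAK-STAT genes, 3 of 12 BMP genes and 4 of 12 EGF genes. In the JAK-STAT list, 8 of 10 genes were listed and the ligands *upd2* and *upd3* were not. *Su(var)2-10* (27.6), an inhibitor of the pathway, and *Stat92E* (16.02), its transcription factor, were highest. They were followed by the phosphatase *Ptp61F* (15.2), the receptor *dome* (12.3) and *Socs36E* (9.98), a feedback inhibitor. The hub ligand *upd1* stood at 5.63. Lowest was *et* (1.70), a negative regulator. All 12 BMP genes were listed, with *Mad* (22.2), the signal-transducing Smad, *gbb* (20.5), a ligand, and the receptors *sax* (18.6) and *put* (6.996) at the top. The ligand *dpp* stood at 3.32, the receptors *wit* and *tkv* at 2.67 and 2.44, and the repressor *brk* was lowest with 0.30. In the EGF list, with 12 of 13 genes listed and *ru* not listed, the ligand *spi* had a level of 45.2 and its export factor Star, listed as *S*, 16.7. *Cbl* (12.8), which turns the receptor over, and *Krn* (11.0), another ligand, followed, and the receptor *Egfr* was lowest with 0.781.

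Somatic cell types were checked through their markers. All 8 cyst lineage genes and all 5 hub genes were listed, at medians of 9.54 and 5.63. In the cyst lineage, *eya* (21.5), *so* (12.02), *spict* (11.98) and *chinmo* (9.96) were highest, and *tj*, a defining factor of early cyst cells, was lowest with 0.705. Among hub genes, *CadN* (7.35) and *Fas3* (7.27), which encode adhesion proteins, were followed by *upd1* (5.63) and *shg* (5.06), and the ligand *hh* stood at 3.65. The methods state that testes were desheathed during digestion. The list taken for sheath muscle was far higher, with 11 of 12 genes above the median of all genes. Whether this RNA came from the sheath was not tested. *Act57B*, a muscle actin, had a level of 887, *Mlc2* 366, *Act87E* 262 and *Mlc1* 249. Lowest was *sls* (9.92), the titin homolog.

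Markers of pigment cells and of organs other than the testis were checked as well. All 10 accessory gland genes, which encode seminal fluid proteins, were listed, and 9 were above the median of all genes. *Mst57Db* (279), *Mst57Da* (188), *Acp53Ea* (92.4) and *Acp62F* (85.7) were highest, and *Acp29AB* (7.07) lowest. Their summed level was 0.0799%, and their share of the counts without division by length was 0.0241%. Of the 3 genes of the ejaculatory bulb, *EbpIII* (the *PebIII* of the list) had a level of 68.0 and *Peb* and *PebII* were not listed. The neuron markers were at 6.44 for *nSyb*, 2.84 for *brp*, 0.855 for *Syt1* and 0.598 for *elav*. Of 6 hemocyte genes, *He* was not listed, and *Pxn* (7.20), *srp* (2.85), *Hml* (1.08), *NimC1* (0.637) and *Sr-CI* (0.549) were. In the fat body list, *FASN1* (19.8), which other tissues also use, was highest, followed by *apolpp* (8.84), *Fbp1* (1.07) and *Lsp2* (1.02). In the pigment cell list, *w* (94.8) was highest, *Sox100B*, which marks pigment cells of the testis, stood at 3.43 and *bw* at 1.54, and *st* was not listed. Only *w* was above the median of all genes, and the source of its RNA was not tested. The part of other organs in the levels was not tested.

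By chromosome, the 1908 listed genes of the X were 15.0% of the annotated genes and held 9.82% of the summed level. Their median level was 7.93. On the other large arms, the median ranged from 9.73 on 3R to 11.5 on 2L, and 2L, with 19.6% of the genes, held 20.8% of the summed level. The highest gene of the X was *lncRNA:CR32652*. The 15 mitochondrial genes held 6.16% of the summed level, of which *lrRNA* made up the largest portion. Chromosome 4, with 89 genes, held 0.219%, or 0.473% of the counts without division by length.

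**Figure D3:**
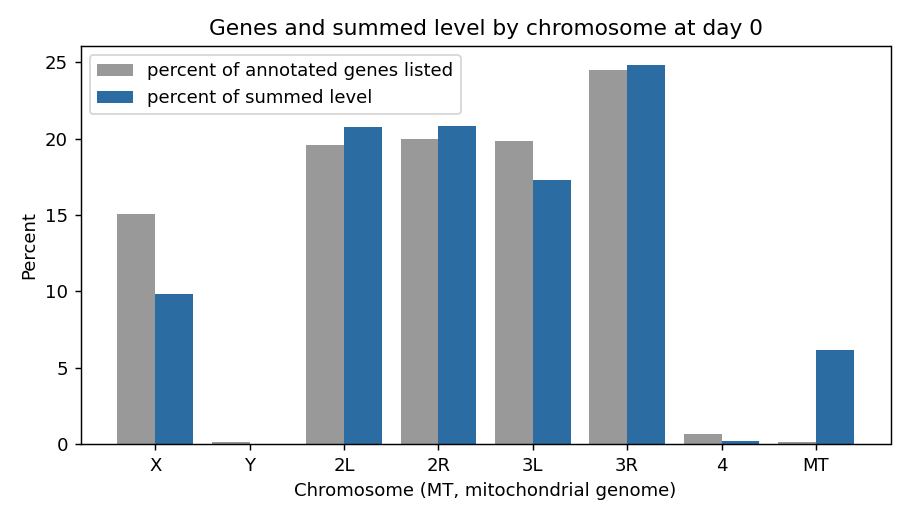
Share of the annotated genes (grey) and share of the summed level (blue) by chromosome at day 0, in percent. The X has 15.0% of the genes and 9.82% of the level, and the mitochondrial genome (MT) 6.16% of the level from 15 genes.

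The Y chromosome carries male fertility genes that are transcribed in spermatocytes, several of them across very long introns. In all, 20 genes of the Y were listed and held 0.0344% of the summed level. All 12 genes of the Y-linked list were among them, with a median of 13.5. The highest were *ARY* (113), *Pp1-Y2* (37.2), a protein phosphatase gene, *Ppr-Y* (26.9) and *Pp1-Y1* (25.4). The axonemal dynein heavy chains *kl-3* (5.17), *kl-5* (4.72) and *kl-2* (2.35) had low levels over exon lengths of 13882, 13680 and 13386 bases, with mean normalized counts of 841.7, 758.0 and 368.3. *WDY* was lowest with 1.36.

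Tubulin isotypes, a list added after the values had been seen, differed widely. The testis-specific *betaTub85D* (2805) was followed by *alphaTub84B* (1783), *alphaTub84D* (373) and the general beta tubulin *betaTub56D* (224). *alphaTub85E*, known from muscle and cyst cells, stood at 178 and *betaTub60D* at 159. The maternal isotypes *alphaTub67C* (1.43) and *gammaTub37C* (0.822) were lowest. Among mitochondrially encoded genes, a second list added later, *lrRNA* (39318) was far above the small ribosomal RNA *srRNA* (112), and *ND4L* was lowest with 21.1. Selection by the poly(A) tail may recover these RNAs unequally, so their levels are not amounts in the cell.

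Beside the other days, the mean levels of day 0 were alike for most genes. The ratio of the level at day 0 to the mean level of days 1, 3 and 5 was within a factor of 1.5 for 95.4% of 9681 genes whose mean normalized count reached 50 on each of the 4 days. Each day is a single value per gene that averages both genotypes. A difference between days may therefore come from either genotype, from age, from temperature or from the libraries. The males of day 0 came from 18°C, and those of the later days had been kept at 25°C. These causes cannot be told apart.

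The genes of the sheath muscle list shared an order of days. They encode muscle proteins, and the tissue that their RNA came from was not tested. All 12 had their highest level at day 0, whereas 22.2% of the 12230 genes with a length that were listed on all 4 days did so. All 12 were also lower on each following day than on the day before, as were 7.59% of all genes. At day 0, 8 of the 12 genes were over 1.5 times the mean of the other days, against 2.93% of all genes. *Act57B* had levels of 887, 608, 350 and 242 on days 0, 1, 3 and 5. *Mhc*, the myosin heavy chain, had 167, 126, 83.7 and 61.7 on these days, and *sls* 9.92, 8.17, 6.64 and 6.60.

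The germline stem cell and spermatogonia list did not share this order. Of its 13 genes, 6 had their lowest level at day 0, against 33.2% of all genes, and 2 had their highest, against 22.2%. For 3 of the 13, namely *zpg*, *piwi* and *bam*, the level at day 0 was below the mean of the other days divided by 1.5, against 5% of all genes. *zpg* had levels of 2.85, 3.39, 6.22 and 4.52 on days 0, 1, 3 and 5, and *vas* 5.29, 5.31, 8.82 and 8.88. *tut* was highest at day 0, with 52.6 against 35.3, 38.6 and 49.2. According to the paper, germ cell loss in *Set1* KD testes gave way to an excess of early germ cells on the later days. Whether the levels of this list followed that change was not tested. *Set1* was at 3.27, 3.00, 4.66 and 4.95. For the sperm tail list, the ratio of the day 0 level to the mean of the other days ranged only from 0.844 to 1.14.

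Of the 5 hemocyte genes listed, 4 had their lowest level at day 0, against 33.2% of all genes. *Hml*, which encodes hemolectin of blood cells, had levels of 1.08, 2.46, 5.65 and 10.1 on days 0, 1, 3 and 5. *NimC1*, a phagocytosis receptor gene, had 0.637, 0.780, 2.93 and 5.59, and *Sr-CI*, a scavenger receptor gene, 0.549, 0.891, 3.69 and 6.76. The mean normalized counts at day 0 were 148.4 for *Hml*, 24.6 for *NimC1* and 14.2 for *Sr-CI*. Those of *NimC1* and *Sr-CI* were below the minimum of 50 used for the ratios above. *srp* was between 2.81 and 3.06 on all days. In the accessory gland list, only 3 of 10 genes were listed on all 4 days. Of these, 2 had their highest level at day 0, against 22.2% of all genes, and 3 genes are too few to describe the list. *Acp26Aa* had 37.3, 27.5, 1.25 and 12.2 on the 4 days, *Acp29AB* 7.07, 4.18, 0.929 and 1.96, and *Acp36DE*, which was highest at day 1, 16.9, 21.4, 5.59 and 18.1. Of the genes missing on a later day, *Acp76A* had 15.4 at day 0 and 15.7 at day 1, and *Mst57Db* 279 at day 0 and 152 at day 1, with no entry on the later days.

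**Figure D4:**
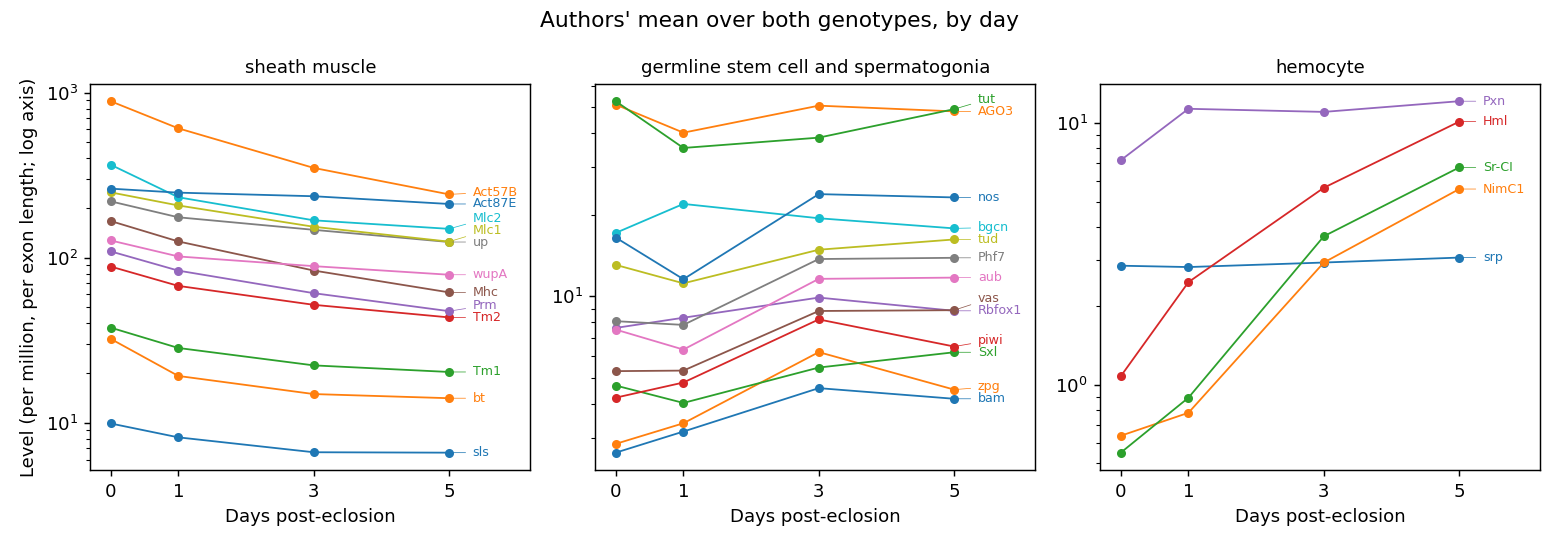
Levels on days 0, 1, 3 and 5 post-eclosion (log axis; share of the sum times 1000000, per exon length) of the sheath muscle, the germline stem cell and spermatogonia, and the hemocyte genes, each line a gene and each point the authors' mean over 6 libraries of both genotypes. All 12 muscle genes are highest at day 0, and *Hml* goes from 1.08 to 10.1.

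Of those 9681 genes, the highest ratios of day 0 to the mean of the other days were those of *CG9686* (7.52), *e* (4.95), *ple* (3.11), *Spn31A* (2.78) and *CG10550* (2.68). *ple* encodes tyrosine hydroxylase, which makes the precursor of dopamine, and *e* encodes ebony, which couples beta-alanine to dopamine. Both act in the tanning of new cuticle. The level of *e* was 6.64, 1.09, 1.55 and 1.39 on the 4 days. The lowest ratios were those of *Hml* (0.177), *IA-2* (0.178), *Spn77Bc* (0.190), *CG34330* (0.191) and *CG6910* (0.216). *IA-2*, a protein of secretory vesicles, had a level of 3.11 at day 0 and 24.2 at day 5.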

How the data were processed

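RNA was sequenced from 6 libraries of day 0 and 18 of the later days. According to the methods, the authors mapped reads with Bowtie 2 (2.5.1) to Release 6 (dm6), counted reads per gene with featureCounts against the RefSeq annotation, and used DESeq2 for each day separately. Bowtie 2 does not split reads across introns, so genes with many short exons may be understated. The strand setting of the counting is not given in the sources used here, so genes that overlap an antisense gene are uncertain. The deposited mean normalized count is a signal, made by the authors as the mean over 6 libraries of counts divided by size factors. The other 5 columns of each table hold the authors' own comparison (log2 fold change, its standard error, statistic and p-values) and were not used. A test between genotypes was planned for values per library. The processed values of each day include none for a single library, so this test was not made.

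Exon lengths and positions came from Ensembl release 115, and from RefSeq for the 15 mitochondrial genes, with RefSeq synonyms for older symbols. Of 12714 genes, 12690 had a length, and the other 24 held 0.139% of the summed means. Levels were computed with Python 3.11.15, numpy 2.4.6 and pandas 2.3.3. The arithmetic was checked on counts simulated with the same lengths, which does not test the mapping, counting or normalization of the real data. Described were *Set1*, the 20 highest levels, the 10 highest counts, the 5 highest long non-coding RNAs, the 5 highest and 5 lowest ratios between days, and in each list at least the 4 highest members, the lowest and those not listed. Further members were named after their values were seen. There were 20 gene lists, and 2 were added after the values had been seen. The members and lists were chosen with earlier results of these data known. Counts, medians and ranges describe the lists, and no test was made.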

Additional observations from a re-analysis of the deposited data

How the results depend on the processing

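No replicate error exists for these levels, so a value was taken as changed when it moved by more than 10%, a limit set when the computation was written. Without division by exon length, 19 of 21 list sums changed. The sums in percent were then 0.669 for meiotic entry and spermatocyte, 0.0614 for meiotic arrest, 0.0455 for germline stem cells and spermatogonia, 0.0445 for Y-linked genes and 0.509 for sperm chromatin. They were 0.0225 for the cyst lineage, 0.0154 for the hub, 0.0326 for JAK-STAT, 0.0237 for BMP, 0.0233 for EGF and 0.0377 for the SET1 complex. They were 0.597 for sheath muscle, 0.0170 for pigment cells, 0.0241 for the accessory gland, 0.00572 for the ejaculatory bulb, 0.00547 for hemocytes, 0.0205 for fat body, 0.00556 for neurons and 0.738 for tubulins. On the same scale the 100 highest genes held 23.7%, chromosome Y 0.0486%, chromosome 4 0.473%, non-coding RNAs 2.31% and pseudogenes 0.134%. With the longest transcript as length, 6 of 21 list sums changed, to 0.00343 for the hub, 0.0117 for JAK-STAT, 0.289 for sheath muscle, 0.00925 for the ejaculatory bulb, 0.00140 for hemocytes and 0.00119 for neurons. Without the mitochondrial genes, the 10 highest genes held 5.51% and the 100 highest 24.7%. A minimum mean normalized count of 10 changed none of the 21 list sums. With only genes listed on all 4 days, the ratio of the accessory gland sum at day 0 to the mean of the other days went from 4.49 to 1.98, and the other 20 ratios kept within the limit.

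No paired analysis was possible because the values used are means over both genotypes. For the same reason other settings of a test between genotypes (another normalization, a filter on low counts, a replicate block, leaving out each library) were not run.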
